A study of Mus musculus with 5 samples.

Results

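The proximal T cell receptor signalling genes described here are 9 genes, listed by symbol: Cd3d, Cd3e, Cd3g, Cd247, Cd4, Lck, Zap70, Lat and Lcp2. All 9 had a value in every library, out of 17426 genes with a value above 0 in at least 1 of the 5 libraries. Their products sit at the top of the T cell receptor pathway. The receptor's own alpha and beta chains bind peptide on MHC but cannot signal, and are carried by the CD3 delta, epsilon and gamma chains and by zeta chains (Cd247), whose cytoplasmic tails hold tyrosine activation motifs. The kinase Lck, held at the membrane and bound to the coreceptor CD4, phosphorylates these tyrosines. The kinase Zap70 docks on them and phosphorylates the adaptors Lat and SLP-76 (Lcp2), from which the calcium, Ras and NF-kB branches start. Regulatory T cells (Tregs) need receptor signals for their suppressive state, and Tregs of visceral fat are known for a restricted receptor repertoire.

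The libraries were messenger RNA profiles of Tregs sorted from C57BL/6 mice, 1 library for each of 5 groups. The adipose groups were 10-month Med23fl/fl;Foxp3Cre mice (labelled Med23 KO), 10-month Foxp3Cre mice, 4-month obese Foxp3Cre mice, with HFD in the title, and 4-month Foxp3Cre mice called lean here only because their labels name no obesity. The lymph node (LN) group was of 4-month Foxp3Cre mice. All 5 groups thus carried Cre at Foxp3, the gene of the Treg lineage factor, which confines recombination of the floxed Mediator subunit gene Med23 to Foxp3-expressing cells. The labels give no number of mice and no sorting gate. The design text calls it a single experiment. With 1 library a group, the variation between mice is unknown and no test between groups was possible. Values are the authors' scaled read counts for comparisons within 1 table. Levels in all 5 libraries and comparisons across tables are in CPM, the same values rescaled to a total of 1000000 per library. Intervals in parentheses are 95% counting intervals, which cover counting error only. A difference of at least 2-fold on the log2(value + 1) scale was used as a size threshold and is no test. The columns of a table differ in their sums, and rescaling both to the same total moved the median log2 ratio of all measured genes up by 0.14 for lean adipose over LN, 0.16 for obese adipose over LN and 0.30 for the library labelled Med23 KO over 10-month Foxp3Cre, where it was 0.15 after rescaling. Counts of lists after rescaling are given where they differ.

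Several features of the libraries touch every comparison. Med23 did not follow its label against its own control, at 15.5 CPM in the library labelled Med23 KO against 6.32 CPM in 10-month Foxp3Cre. These values rest on 71 and 61 reads, and in scaled counts, at 13.9 against 7.02, they were within 2-fold. In the other tables Med23 was at 31.4 scaled counts in obese and 44.6 in lean adipose. A count of all its exons cannot tell a deleted allele from an intact one. The female RNA Xist was at 602, 440.4 and 228 CPM in the library labelled Med23 KO, in 10-month Foxp3Cre and in LN, where the Y-linked Ddx3y was listed at 0. In obese and lean adipose Xist was at 3.60 and 0 CPM and Ddx3y at 562 and 559.7 CPM. Gapdh, an enzyme gene of all cells, was at 10.7 CPM in obese and 1.05 CPM in lean adipose but between 548 and 979 CPM in the other libraries. Foxp3 was at 155, 185, 180.1 and 216 CPM in the adipose libraries in the order above, against 52.5 CPM in LN. Foxp3 and the CD3 chains, which define the labelled cells, were thus above 0 in every library. The 15 macrophage and dendritic cell genes summed to 121, 659.9, 4961 and 897 CPM in the adipose libraries in that order, against 11.2 CPM in LN, where 13 of the 15 were listed at 0, Csf1r, Cd68 and Adgre1 among them. The 8 stromal genes summed to 982 CPM in lean adipose and to at most 48.9 CPM elsewhere, and the 5 erythroid genes to 7025 CPM in the library labelled Med23 KO, between 540.5 and 944 CPM in the other adipose libraries and 0 in LN. Genes of CD8 T and NK cells summed to 121 to 373 CPM, most of it Nkg7 in each library, with 340.5 CPM in LN. Cd8a and Cd8b1 were at 14.1 and 16.5 CPM in LN and listed at 0 in lean adipose. Gamma delta T cell genes summed to 0 to 77.7 CPM, B cell genes to 0 to 19.4 and endothelial genes to 27.3 to 83.2. Genes of adipocytes summed to 0 to 14.8 CPM and of granulocytes and mast cells to 0 to 8.15. The 5 Treg genes summed to 5952, 8864, 8390 and 8178 CPM in the adipose libraries, against 4738 in LN. These sums hide Il2ra, at 307 CPM in obese against 1520 in lean adipose and 291 in LN. It was 4.95-fold lower (4.74 to 5.18) in obese than in lean adipose, where the other 4 Treg genes were within 2-fold. In sorted bulk samples fewer T cells in the sort and less of an RNA per T cell cannot be told apart.

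The promoter windows of the 5 genes that were at least 2-fold lower in lean adipose than in LN Tregs are shown because 4 of them encode the CD3 and zeta chains of a single complex, and Lat had the next largest fold of the 9 after Cd247. Each runs 5′ to 3′ on the gene's own strand from 250 bases before the annotated start to 50 bases after it (RefSeq, GRCm38.p6). Capitals mark the core AGGAAG, or CTTCCT on the other strand, letters that ETS family factors can bind, and the window of Cd3g holds none.
Cd3g, minus strand, chr9:44980382-44980681: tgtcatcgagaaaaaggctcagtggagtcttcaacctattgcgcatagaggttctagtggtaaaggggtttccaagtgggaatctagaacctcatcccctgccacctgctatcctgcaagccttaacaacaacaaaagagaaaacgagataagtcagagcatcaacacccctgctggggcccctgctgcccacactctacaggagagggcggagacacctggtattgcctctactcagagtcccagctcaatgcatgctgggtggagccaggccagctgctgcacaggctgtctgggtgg
Cd3d, plus strand, chr9:44981536-44981835: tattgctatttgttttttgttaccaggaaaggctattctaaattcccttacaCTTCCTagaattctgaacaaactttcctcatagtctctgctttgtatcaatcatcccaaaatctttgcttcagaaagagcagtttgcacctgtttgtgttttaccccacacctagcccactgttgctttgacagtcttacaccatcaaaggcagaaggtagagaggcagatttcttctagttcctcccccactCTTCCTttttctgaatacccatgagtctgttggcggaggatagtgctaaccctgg
Cd3e, minus strand, chr9:45009562-45009861: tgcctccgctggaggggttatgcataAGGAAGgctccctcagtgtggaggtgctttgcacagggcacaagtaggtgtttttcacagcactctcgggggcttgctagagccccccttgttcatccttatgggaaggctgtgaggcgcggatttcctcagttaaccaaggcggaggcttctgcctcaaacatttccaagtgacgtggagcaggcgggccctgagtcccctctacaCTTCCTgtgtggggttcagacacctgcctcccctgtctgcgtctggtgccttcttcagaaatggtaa
Cd247, plus strand, chr1:165788431-165788730: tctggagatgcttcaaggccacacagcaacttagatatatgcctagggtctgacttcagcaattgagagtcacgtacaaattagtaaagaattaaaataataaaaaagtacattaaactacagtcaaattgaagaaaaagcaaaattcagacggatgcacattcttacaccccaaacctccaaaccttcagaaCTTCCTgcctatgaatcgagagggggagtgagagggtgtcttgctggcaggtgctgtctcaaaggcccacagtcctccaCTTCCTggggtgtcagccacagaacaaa
Lat, minus strand, chr7:126369519-126369818: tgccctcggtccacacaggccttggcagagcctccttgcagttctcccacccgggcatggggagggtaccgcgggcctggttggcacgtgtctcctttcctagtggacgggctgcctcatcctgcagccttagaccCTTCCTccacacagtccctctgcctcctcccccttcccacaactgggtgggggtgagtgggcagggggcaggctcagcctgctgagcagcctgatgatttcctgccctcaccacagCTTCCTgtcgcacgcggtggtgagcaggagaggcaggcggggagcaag

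Cd3g and Cd3d lie head to head, with 1355 bases between their starts, and the start of Cd3e is 27825 bases from that of Cd3d on the same chromosome. Of the 9 genes, 8 had windows in the RefSeq table, 11 in all, and Cd4 had none. The ETS core was in 9 of the 11 windows and in at least 1 window of 7 of the 8 genes, and in 35.4% of all 32851 windows. The RUNX core TGTGGT was in 3 of the 11 windows (16.8% of all), the TCF core CTTTGA in 4 (16.0%), the GATA core AGATAA in 2 (11.2%) and the TATA box letters TATAAA in none (13.6%), each counted on both strands. These are matches of letters and not sites. The window of Cd3d, with 42.3% G and C, and that of Cd3g, with 54.0%, differ in base makeup, and the median of all windows was 52.7%.

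**Figure D1:**
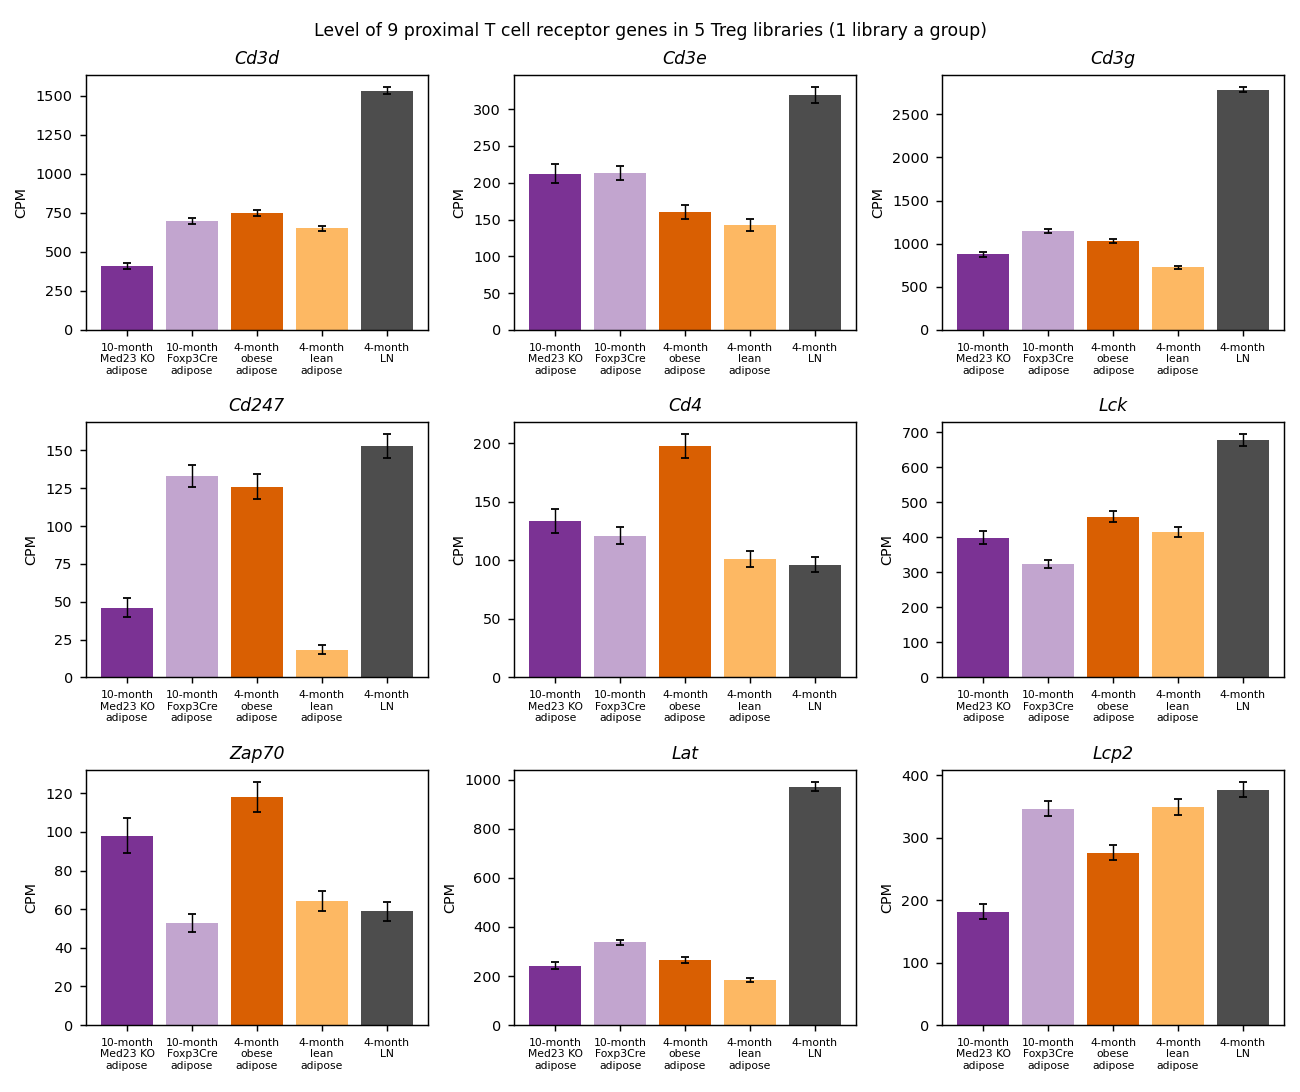
CPM of each of the 9 genes (vertical axes, from 0) in the 5 libraries (horizontal axes); bars are single libraries and whiskers 95% counting intervals. Cd3d, Cd3e, Cd3g and Lat stand highest in LN, at 1534, 319, 2787 and 973 CPM, while Cd4 and Zap70 stand highest in obese adipose, at 198 and 118 CPM.

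The chains of the CD3 complex were all highest in LN Tregs. Cd3g was at 877 CPM in the library labelled Med23 KO, 1147 in 10-month Foxp3Cre, 1027 in obese and 727 in lean adipose, against 2787 in LN. Cd3d was at 408, 698, 747 and 652 CPM in these adipose libraries, against 1534 in LN. Every adipose library was thus below LN by more than its counting interval for both genes, and the adipose libraries differed less among themselves than from LN. Cd3e was at 212, 213, 159.9 and 142 CPM in the adipose libraries, against 319 in LN. The Cd3e levels of both 10-month libraries had overlapping intervals in CPM, of 199 to 226 and 204 to 223. This depended on the scaling. In scaled counts Cd3e was 1.24-fold lower (1.15 to 1.34) in the library labelled Med23 KO than in 10-month Foxp3Cre.

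The zeta chain gene Cd247 did not follow the other chains. It was at 45.7 CPM in the library labelled Med23 KO, 133 in 10-month Foxp3Cre, 126 in obese and 18.3 in lean adipose, against 153 in LN. Its highest level was 8.36 times its lowest, the widest spread of the 9 genes, where the next was 5.31 for Lat and the smallest 2.05 for Cd4. The lean value rests on 156 reads. A further limit applies to this gene alone to this extent: 56.4% of its annotated exonic bases (GENCODE M21) are also exonic in Pou2f1, a transcription factor gene on the opposite strand, and no source used here gives the strand setting of the counts. Pou2f1 was at 99.5, 98.6, 85.2 and 35.6 CPM in the adipose libraries in the order above, against 59.3 in LN, so it too was lowest in lean adipose, while it was not low in the library labelled Med23 KO. Its part in the Cd247 values was not tested. The other members shared at most 6.32% of exonic bases with another gene, which is the value for Lcp2 and 4930469K13Rik.

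The coreceptor and the kinases had another order. Cd4 was at 133 CPM in the library labelled Med23 KO, 121 in 10-month Foxp3Cre, 198 in obese and 101 in lean adipose, against 96.5 in LN. Zap70 was at 97.7, 52.6, 118 and 64.0 CPM in these adipose libraries, against 58.8 in LN. For both genes obese adipose was highest, and the lean and LN intervals overlapped (94.4 to 108 and 90.5 to 103 CPM for Cd4, 58.8 to 69.6 and 54.1 to 63.8 CPM for Zap70). Lck was at 399.6, 323, 459.5 and 415 CPM in the adipose libraries, against 678 in LN.

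The adaptor genes differed from each other. Lat, the membrane scaffold on which the signalling complex forms, was at 241 CPM in the library labelled Med23 KO, 337 in 10-month Foxp3Cre, 264 in obese and 183 in lean adipose, against 973 in LN. Lcp2, which encodes the cytosolic adaptor that joins this complex, was at 181, 346, 275 and 349 CPM in the adipose libraries, against 377 in LN. Lcp2 in lean and in 10-month Foxp3Cre adipose was thus near its LN level, where Lat was far below it in every adipose library.

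Levels of different genes can be compared per length only, here as CPM per kilobase of annotated exon. Cd3g was first and Cd3d second of the 9 genes in all 5 libraries, with 711 and 403 CPM per kilobase in lean adipose, against 2724 and 949 in LN. Lat came next in all but lean adipose, where Lck took that place, with 179 CPM per kilobase against 147 for Lat. Cd3e, a chain of the same complex, stood well below its partners, at 97.4 CPM per kilobase in lean adipose and 218 in LN. Per length, Cd3g RNA exceeded Cd3e RNA 5.90-fold (5.50 to 6.34) in the library labelled Med23 KO, 7.69-fold (7.33 to 8.06) in 10-month Foxp3Cre, 9.18-fold (8.63 to 9.76) in obese and 7.30-fold (6.87 to 7.77) in lean adipose, against 12.5-fold (12.0 to 13.0) in LN.

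Lean adipose against LN Tregs asks what sets Tregs of fat apart from those of lymphoid tissue. Of the 9 genes 5 were at least 2-fold lower in lean adipose and none at least 2-fold higher, where 32.1% of 13541 measured genes were lower and 37.6% higher. The median log2 ratio was -1.30, against 0.14 for all measured genes. The CD3 chains, zeta and Lat were the lower ones, and Cd4, Zap70, Lcp2 and Lck were within 2-fold. Cd247, in scaled counts, stood at 17.4 in lean adipose against 160.3 in LN, 9.22-fold lower (7.82 to 10.9). Lat had 174 against 1021, 5.86-fold lower (5.55 to 6.18). Cd3g had 692 against 2925, 4.23-fold lower (4.11 to 4.35). The remaining CD3 chains were closer to LN, Cd3d at 2.60-fold lower (2.52 to 2.68) and Cd3e at 2.47-fold lower (2.31 to 2.64). Lck had 395 against 712, 1.80-fold lower (1.73 to 1.88), and Lcp2 332 against 396, 1.19-fold lower (1.13 to 1.25). The folds of Zap70 and Cd4, at 0.987 (0.876 to 1.11) and 0.948 (0.864 to 1.04), had intervals that include 1. With both columns rescaled to the same total they were 1.09 and 1.05, on the other side of 1.

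**Figure D2:**
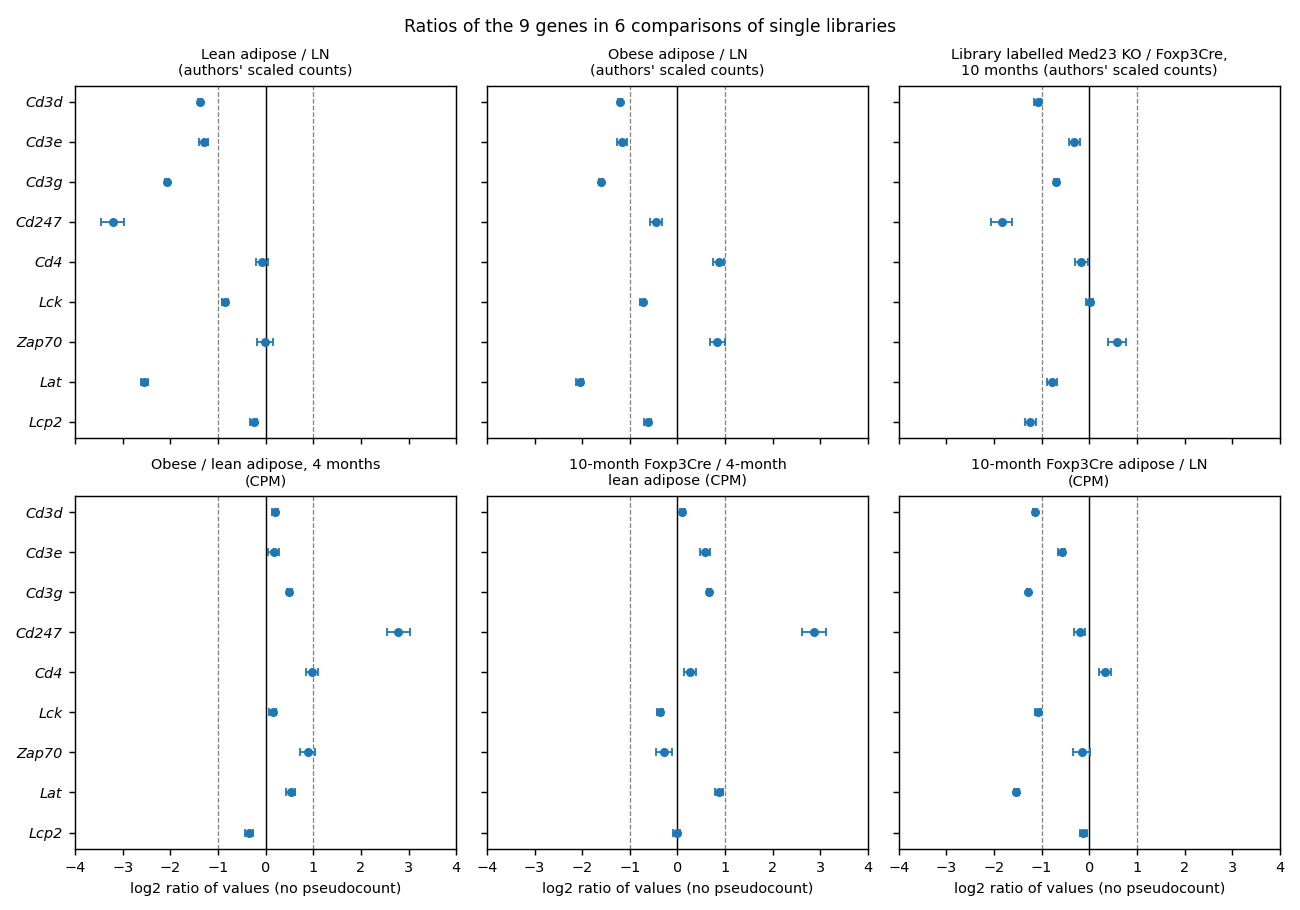
log2 ratios of the values, without pseudocount (horizontal axes), for the 9 genes (rows) in 6 comparisons of single libraries; whiskers are 95% counting intervals and dashed lines mark 2-fold. Cd3g, Cd3d and Lat lie left of the lower 2-fold line against LN for each of the 3 adipose libraries of Foxp3Cre mice. Cd247 lies farthest from 0 of the 9 genes in the 3 comparisons that hold the lean library. It also does so for the library labelled Med23 KO over 10-month Foxp3Cre.

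Other genes of the pathway were taken from lists chosen with earlier results of these data known. The receptor's own constant regions were lower in lean adipose with the CD3 chains, all 3 of 3, at 8.0-fold (7.71 to 8.29) for Trbc2, 3.80-fold (3.67 to 3.95) for Trac and 3.08-fold (2.99 to 3.17) for Trbc1. Trbc1 and Trbc2 are near-identical copies, so their split is uncertain. Of 10 accessory receptors 5 were at least 2-fold lower and none higher, with the costimulatory receptor gene Cd28 12.2-fold lower (11.2 to 13.4), Slamf6 6.81-fold lower (6.34 to 7.33) and Icos 4.34-fold lower (4.16 to 4.52).

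Genes of the signalling steps around and below the members went both ways in lean adipose. So did all measured genes, of which 37.6% were at least 2-fold higher and 32.1% lower. Of 26 further kinases, adaptors and effectors 7 were at least 2-fold higher and 6 lower (median -0.13), or 8 and 6 (median 0.01) after rescaling. The SLAM adaptor gene Sh2d1a was 6.55-fold lower (6.11 to 7.03) and Prkcq, a protein kinase C of the NF-kB branch, 5.26-fold lower (4.57 to 6.09). Of 18 inhibitors of the pathway 2 were higher and 4 lower (2 and 3 after rescaling, median -0.37), with the membrane adaptor gene Sit1 6.18-fold lower (5.24 to 7.33), the phosphatase gene Ptpn2 3.20-fold lower (2.98 to 3.43) and Ubash3b, another phosphatase, 2.63-fold higher (2.33 to 2.98). Of 14 calcium and NFAT genes 5 were higher and 3 lower (5 and 2 after rescaling, median 0.32), with the inositol trisphosphate receptor genes Itpr3 5.66-fold higher (4.46 to 7.27) and Itpr1 4.75-fold higher (4.31 to 5.25), and the calcium channel gene Orai2 5.21-fold lower (3.77 to 7.33). Macrophage and dendritic cell genes passed 2-fold upward in 11 of 12 measured cases. Most of these were listed at 0 in LN and so pass at any value of 1 or more. The part of such cells in these values was not tested.

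Obese adipose against LN Tregs gave the same side for the CD3 chains and Lat, with smaller folds than in lean adipose. Of the 9 genes 4 were at least 2-fold lower and none at least 2-fold higher, where 23.7% of 14713 measured genes were lower and 41.8% higher. The median log2 ratio was -0.73, against 0.44 for all measured genes. Lat had 249 scaled counts in obese adipose against 1031 in LN, 4.15-fold lower (3.95 to 4.35). Cd3g had 967 against 2954, 3.05-fold lower (2.98 to 3.13). Cd3d was 2.31-fold lower (2.24 to 2.38) and Cd3e 2.24-fold lower (2.10 to 2.40). Cd247, far below LN in lean adipose, had 119 against 162 here, 1.36-fold lower (1.26 to 1.48).

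The coreceptor and Zap70 were above LN in the obese library. Cd4 had 186 scaled counts against 102, 1.82-fold higher (1.67 to 1.98), and Zap70 had 111 against 62.3, 1.78-fold higher (1.60 to 1.98). Their log2 ratios were 0.86 and 0.82, against a median of 0.44 for all measured genes. Of all measured genes 56.4% lay below Cd4 and 55.9% below Zap70, so neither stood out from the library as a whole. Rescaled to the same total, Cd4 was 2.05-fold higher (1.88 to 2.22) and past the threshold, while Cd3e, at 1.99-fold lower (1.86 to 2.13), was not. Lck was 1.66-fold lower (1.59 to 1.73) and Lcp2 1.54-fold lower (1.46 to 1.63), and both passed 2-fold after subtracting the all-gene median. The summed macrophage and dendritic cell genes were highest in this library, with 14 of 15 at least 2-fold above LN. In mice some dendritic cells also carry CD4, and the part of such cells in these values was not tested. Of 10 measured genes of the matching receptor pathways of myeloid and B cells 7 were higher in obese adipose and 2 lower. The higher ones included Fcer1g, an adaptor with such a tyrosine motif, at 589 scaled counts against 6.23 in LN, Tyrobp, a similar adaptor, at 484 against 0, and Syk, the sister kinase of Zap70, at 51.0 CPM in obese adipose and listed at 0 in lean adipose and LN. The lower ones were the signalling chains of the B cell receptor, Cd79a at 3.02 scaled counts against 16.6 and Cd79b at 21.2 against 87.3, 5.51-fold (3.57 to 8.87) and 4.11-fold (3.48 to 4.88) lower.

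All 3 constant regions were lower in obese adipose than in LN, with Trbc2 4.94-fold (4.79 to 5.09), Trbc1 3.57-fold (3.46 to 3.69) and Trac 2.64-fold (2.56 to 2.73) lower. Of the accessory receptors 4 of 10 were lower and none higher, with Cd28 15.4-fold lower (13.9 to 17.1), Icos 4.07-fold lower (3.90 to 4.25) and Cd226 2.09-fold lower (1.93 to 2.27). After rescaling 2 were lower and 1 higher, with Cd226 at 1.86-fold and Slamf6 at 1.78-fold lower within the threshold and Slamf1, another receptor of the SLAM family, 2.06-fold higher. Of the further kinases, adaptors and effectors 7 of 26 were higher and 2 lower (7 and 1 after rescaling), with the thymocyte and T cell adaptor gene Themis 3.70-fold higher (3.26 to 4.21) and Malt1, a protease of the NF-kB branch, 3.54-fold higher (3.24 to 3.88). Of the inhibitors 6 of 18 were higher and 5 lower, or 6 and 3 after rescaling. Among them Sla2 was 3.47-fold lower (2.94 to 4.12), the phosphatase gene Ptpn6 3.27-fold lower (2.80 to 3.85) and the ubiquitin ligase gene Cblb 3.09-fold higher (2.85 to 3.36). Of 14 calcium and NFAT genes 4 were higher and 1 lower (4 and 0 after rescaling), with Itpr1 4.81-fold higher (4.35 to 5.31).

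Since lean and obese adipose differ from LN in the sex markers and Gapdh, the 10-month Foxp3Cre adipose library, which shares both with LN, was set against LN too, although its age differs. Of the 9 genes 4 were at least 2-fold lower and none at least 2-fold higher, where 29.8% of 13187 measured genes were lower and 34.3% higher. The median log2 ratio was -0.58, against 0.10 for all measured genes. Lat was 2.89-fold lower (2.77 to 3.01), Cd3g 2.43-fold lower (2.38 to 2.48), Cd3d 2.20-fold lower (2.13 to 2.26) and Lck 2.10-fold lower (2.01 to 2.19), though Lck did not pass 2-fold after upper quartile scaling. Cd3e, at 1.5-fold lower (1.41 to 1.58), and Cd247, at 1.15-fold lower (1.07 to 1.24), were within 2-fold here. Cd4 was 1.26-fold higher (1.15 to 1.37), Lcp2 1.09-fold lower (1.04 to 1.14), and the fold of Zap70, 0.895, had an interval of 0.793 to 1.01.

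Of the constant regions 2 of 3 were at least 2-fold lower in 10-month Foxp3Cre adipose than in LN, Trbc2 3.17-fold (3.10 to 3.25) and Trbc1 2.70-fold (2.62 to 2.77), and Trac was 1.80-fold lower (1.75 to 1.85). The accessory receptors had 1 of 10 lower and 1 higher. Slamf6 was 4.61-fold lower (4.34 to 4.90) and the inhibitory receptor gene Ctla4 2.18-fold higher (2.13 to 2.22), while Cd28, far below LN in the 4-month adipose libraries, was at 1125 CPM here against 689 in LN. Of the further kinases, adaptors and effectors 6 of 26 were higher and 4 lower (7 and 4 after upper quartile scaling), of the inhibitors 4 of 18 higher and 4 lower, and of the calcium and NFAT genes 4 of 14 higher and 1 lower. Ptpn6, the phosphatase SHP-1, was at 2.07 CPM against 76.8, 37.1-fold lower (23.8 to 61.1), and the adaptor gene Lax1 was listed at 0 against 35.2. Malt1 was 3.86-fold higher (3.54 to 4.22), the inhibitory adaptor gene Dok2 4.22-fold higher (3.56 to 5.03) and Orai1 4.76-fold higher (4.25 to 5.33). Of 10 measured macrophage and dendritic cell genes 9 were at least 2-fold above LN, and their part was not tested. The 3 comparisons with LN share that library, so they are no independent repeats of each other.

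**Figure D3:**
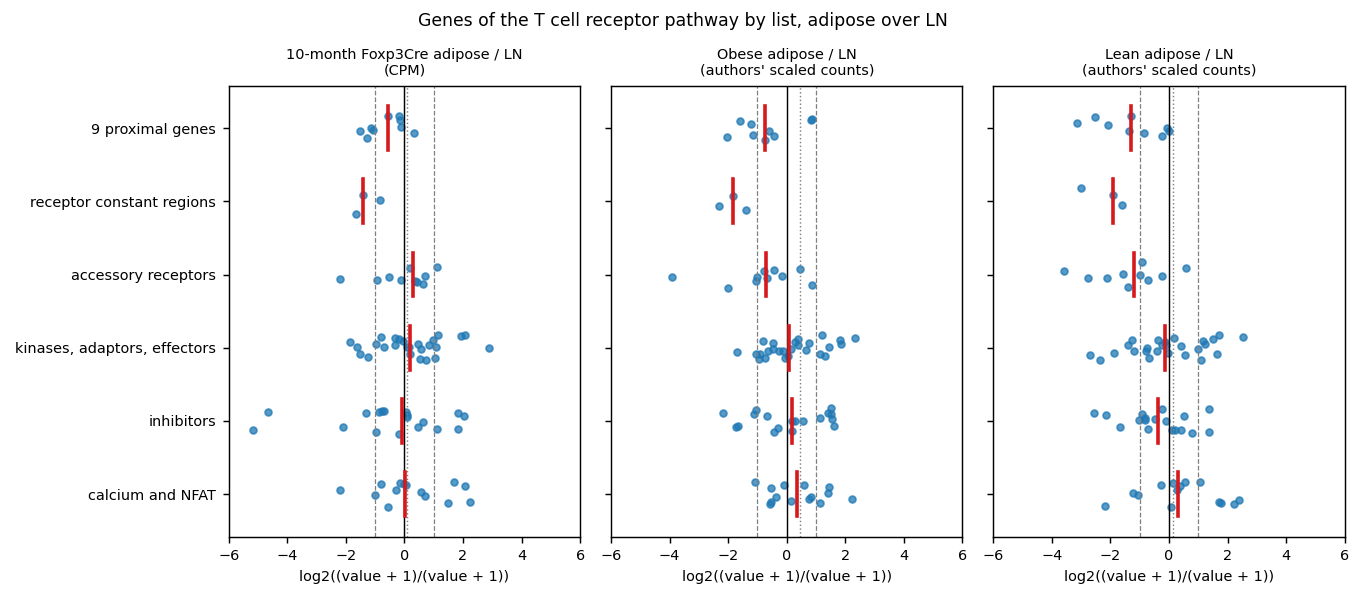
log2((value + 1)/(value + 1)) of each measured gene (points) of 6 lists (rows) for 3 adipose libraries of Foxp3Cre mice over the shared LN library; red bars are list medians, the dotted line is the median of all measured genes and dashed lines mark 2-fold. The medians of the 9 proximal genes, at -0.58, -0.73 and -1.30, and of the constant regions, at -1.43, -1.83 and -1.92, lie left of 0, and those of the 26 kinases, adaptors and effectors, at 0.18, 0.09 and -0.13, lie near it.

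Obese against lean adipose Tregs asks how obesity of the host goes with these genes, and both libraries share the Y-linked reads and low Gapdh. Only Cd247 passed 2-fold, 1 of 9 higher and none lower, where 34.0% of 14804 measured genes were higher and 18.6% lower. The median log2 ratio was 0.50, against 0.20 for all measured genes. Cd247 was at 126 CPM in obese against 18.3 in lean adipose, 6.89-fold higher (5.81 to 8.22). Cd4 was 1.96-fold higher (1.80 to 2.13) and Zap70 1.84-fold higher (1.65 to 2.05). Lat, at 1.44-fold higher (1.35 to 1.54), and Cd3g, at 1.41-fold higher (1.36 to 1.46), came next. Cd3d, Cd3e and Lck were 1.15-fold (1.10 to 1.19), 1.12-fold (1.04 to 1.22) and 1.11-fold (1.06 to 1.16) higher, but marginally lower, by 0.00 to 0.05 on the log2 scale, after subtracting the all-gene median. Lcp2 was lower, 1.27-fold (1.20 to 1.34).

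In the same comparison none of the 3 constant regions passed 2-fold. Of the accessory receptors 1 of 10 was higher, Slamf6, 3.46-fold (3.20 to 3.74). Of the further kinases, adaptors and effectors 6 of 26 were higher and 2 lower (5 and 2 when scaled through the shared LN column), with Themis 6.47-fold higher (5.52 to 7.62), Unc119, an activator of Lck, at 15.3 CPM against 2.93, 5.24-fold higher (3.38 to 8.43), and the adaptor gene Nck2 4.07-fold lower (3.35 to 4.98). Of 17 measured inhibitors 4 were higher and none lower, among them Sit1 3.93-fold (3.30 to 4.70), Dok2 3.64-fold (2.99 to 4.44) and Ubash3a 2.57-fold (2.19 to 3.01) higher. All 15 macrophage and dendritic cell genes were at least 2-fold higher in obese than in lean adipose, and the 6 measured stromal genes all lower, with sums of 14.7 and 982 CPM. Their part in these values was not tested.

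The 10-month Foxp3Cre against the 4-month lean adipose library compares ages, but the sex markers and Gapdh differ with the age and cannot be told apart from it. Cd247 was the single gene of the 9 past 2-fold, higher, where 28.5% of 13880 measured genes were higher and 32.7% lower. It was at 133 CPM at 10 months against 18.3 at 4 months, 7.27-fold higher (6.15 to 8.64). Lat was 1.84-fold higher (1.73 to 1.95), Cd3g 1.58-fold higher (1.53 to 1.63), Cd3e 1.5-fold higher (1.39 to 1.61), Cd4 1.20-fold higher (1.10 to 1.31) and Cd3d 1.07-fold higher (1.03 to 1.11). Lck was 1.29-fold lower (1.23 to 1.35) and Zap70 1.22-fold lower (1.08 to 1.38), and the fold of Lcp2, 0.991, had an interval of 0.943 to 1.04. Upper quartile scaling, and centring on the all-gene median, put Lat past 2-fold as well and Lcp2 above 1. Of the accessory receptors 5 of 10 were higher and none lower (6 higher after upper quartile scaling), led by Cd28 at 18.1-fold (16.6 to 19.8), Ctla4 at 3.89-fold (3.78 to 4.0) and Icos at 3.61-fold (3.46 to 3.77). Trbc2 was 2.28-fold higher (2.19 to 2.38), and Trac, at 1.91-fold higher (1.84 to 1.99), and Trbc1, at 1.04-fold (1.0 to 1.07), were within 2-fold, though upper quartile scaling put Trac past it, at 2.16-fold. Of the kinases, adaptors and effectors 4 of 26 were higher and 2 lower (4 and 1 after that scaling), with Unc119 4.57-fold (2.96 to 7.32), Themis 3.26-fold (2.76 to 3.87) and Bcl10 3.25-fold (2.91 to 3.63) higher. Of 17 measured inhibitors 5 were higher and 3 lower (5 and 2 after it), with Dok2 4.57-fold higher (3.80 to 5.53), Ptpn6 19.8-fold lower (12.6 to 32.9) and Lax1 listed at 0 against 27.3 CPM. Of 14 calcium and NFAT genes 2 were higher and 2 lower, with the calcineurin subunit gene Ppp3cb 5.44-fold lower (4.76 to 6.23). Of 12 measured macrophage and dendritic cell genes 1 was at least 2-fold higher and 8 lower at 10 months, and all 6 measured stromal genes were lower, and their part in these values was not tested.

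The library labelled Med23 KO against 10-month Foxp3Cre adipose asks what loss of Med23 in Foxp3-expressing cells does. Every direction rests on a label that Med23 itself, on 71 and 61 reads, did not follow in this pair. Of the 9 genes 3 were at least 2-fold lower and none at least 2-fold higher, where 34.9% of 13549 measured genes were lower and 28.6% higher. The share was thus near that of all genes at this setting, though the counts over all genes fall with a larger pseudocount. The median log2 ratio was -0.69, against -0.15 for all measured genes. Cd247 stood at 41.1 scaled counts with the Med23 KO label against 147 in 10-month Foxp3Cre, 3.59-fold lower (3.10 to 4.17). Lcp2 had 163 against 384, 2.36-fold lower (2.19 to 2.55), and Cd3d 366 against 775, 2.12-fold lower (2.01 to 2.23). With both columns rescaled to the same total Cd247 alone stayed past 2-fold, at 2.90-fold lower (2.51 to 3.38), with Lcp2 at 1.91-fold (1.77 to 2.06) and Cd3d at 1.71-fold (1.63 to 1.80).

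The other members were within 2-fold in the library labelled Med23 KO. Lat was 1.72-fold lower (1.61 to 1.85), Cd3g 1.62-fold lower (1.56 to 1.67) and Cd3e 1.24-fold lower (1.15 to 1.34). Zap70 was 1.5-fold higher (1.32 to 1.71). With both columns rescaled to the same total, Lat was 1.40-fold and Cd3g 1.31-fold lower, and Zap70 was 1.86-fold higher. The rescaled fold of Cd3e was 0.995 (0.921 to 1.07), an interval that includes 1, so its lower value did not hold under that scaling. The fold of Lck was 1.0 (0.946 to 1.06), or 1.24 (1.17 to 1.31) after rescaling, and that of Cd4 was 0.891 (0.807 to 0.984), or 1.10 (0.996 to 1.21) after rescaling.

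Around the members, Trac was 5.40-fold lower (5.03 to 5.81) in the library labelled Med23 KO, while Trbc2 was 1.19-fold lower (1.14 to 1.23) and Trbc1 had a fold of 1.04 (1.0 to 1.08). Of the further kinases, adaptors and effectors 5 of 26 were higher and 3 lower (8 and 2 after rescaling), with Prkcq 4.92-fold higher (4.39 to 5.53), Malt1 4.25-fold lower (3.80 to 4.78) and the calcium regulator gene Tespa1 3.35-fold lower (3.0 to 3.74). Of 17 measured inhibitors 3 were higher and 3 lower (3 and 2 after rescaling). Pag1, which anchors the Lck-inhibiting kinase Csk, was 5.38-fold higher (4.54 to 6.39), Lax1 had 74.2 scaled counts against 0, and Sit1 was 3.06-fold lower (2.41 to 3.94). Cd2, a costimulatory adhesion receptor gene, was 3.51-fold lower (3.37 to 3.65) and Slamf6 2.11-fold higher (1.96 to 2.27). No calcium and NFAT gene was higher and 3 of 14 were lower, Ppp3r1 3.34-fold (2.56 to 4.43), Orai2 2.61-fold (1.74 to 4.01) and Orai1 2.36-fold (2.12 to 2.62). This count turned with the scaling. After rescaling 4 were higher, Ppp3cb 2.31-fold, Itpr1 2.23-fold, Stim1 2.17-fold and Nfatc2 2.11-fold, and only Ppp3r1 of the 14 was lower past the threshold, with Orai1 at 1.91-fold lower. Of the Treg genes 3 of 5 were lower, led by Il2ra at 5.10-fold (4.84 to 5.38) and Tnfrsf4 at 3.96-fold (3.86 to 4.07). The remaining one, Tnfrsf18, was 1.70-fold lower after rescaling, which leaves 2 of 5. Of 11 measured macrophage and dendritic cell genes 9 were lower and 2 higher (7 and 2 after rescaling), and the erythroid genes were 4 of 4 higher. Of 3 measured gamma delta T cell genes 1 was higher and 2 lower, with sums of 69.9 scaled counts against 17.5. Among 5 measured genes of CD8 T and NK cells 2 were higher and 2 lower (3 and 2 after rescaling). The part of all these cells in the values was not tested.

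Shares of the reads of the 9 genes do not depend on scaling between libraries or on how much of a library came from other cells that lack these genes. The 4 CD3 and zeta chains took 59.4% (58.5 to 60.3) of these reads in the library labelled Med23 KO, 65.0% (64.5 to 65.5) in 10-month Foxp3Cre, 61.0% (60.4 to 61.6) in obese and 58.0% (57.4 to 58.7) in lean adipose, against 68.7% (68.4 to 69.1) in LN. Cd3g took 33.8%, 34.0%, 30.4% and 27.4% in these adipose libraries, against 39.9% in LN. Lat took 9.29%, 9.99%, 7.83% and 6.91%, against 13.9% in LN. All 4 adipose libraries were thus below LN in the shares of the chains together, of Cd3g and of Lat, by more than the counting intervals.

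The shares are parts of a closed total, so smaller shares of some genes come with larger shares of others. Zap70 took 3.77% (3.43 to 4.12) in the library labelled Med23 KO, 1.56% (1.43 to 1.70) in 10-month Foxp3Cre, 3.49% (3.27 to 3.73) in obese and 2.41% (2.22 to 2.62) in lean adipose, against 0.843% (0.775 to 0.915) in LN. Cd4 took 5.14%, 3.60%, 5.86% and 3.81% in the adipose libraries, against 1.38% in LN. Lcp2 took 6.99%, 10.3%, 8.16% and 13.2%, against 5.40% in LN. For these genes the share was above LN in every adipose library. The levels of Lcp2 and Zap70 were not. Lcp2 was below its LN level of 377 CPM in all 4 adipose libraries, at 181 to 349 CPM. Zap70 was at 52.6 CPM in 10-month Foxp3Cre against 58.8 in LN, with overlapping intervals. The level of Cd4 in CPM was above LN in every adipose library, at 101 to 198 CPM against 96.5, though its lean and LN intervals overlapped. In scaled counts lean Cd4 was on the other side of LN, at 96.1 against 101. Lcp2 is also made by myeloid cells, whose genes were near 0 in LN, and their part in its share was not tested. The shares of Cd3d, at 15.7%, 20.7%, 22.1% and 24.6% against 22.0% in LN, and of Lck, at 15.4%, 9.57%, 13.6% and 15.7% against 9.72% in LN, had no such common side.

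**Figure D4:**
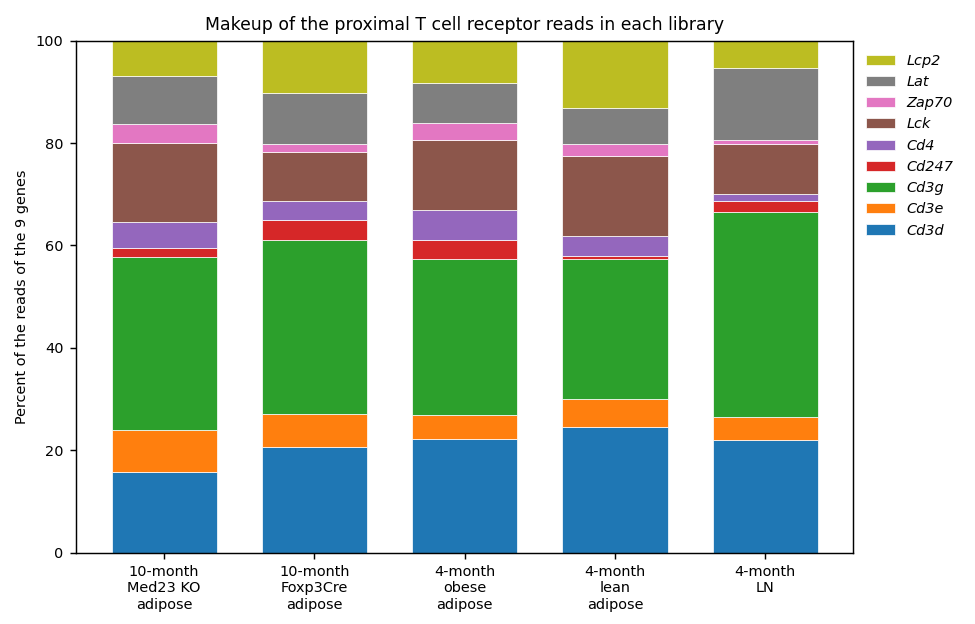
Percent of the summed reads of the 9 genes (vertical axis) taken by each gene (colours) in the 5 libraries (horizontal axis), each a single library. Cd3g and Lat take smaller shares in the 4 adipose libraries than in LN (39.9% and 13.9%), and Cd247 is a thin band in lean adipose, at 0.689%.

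Ratios of a pair of members within a library are likewise free of the scaling between libraries. There were 1.33 (1.21 to 1.46) reads of Lat per read of Lcp2 in the library labelled Med23 KO, 0.973 (0.927 to 1.02) in 10-month Foxp3Cre, 0.959 (0.901 to 1.02) in obese and 0.524 (0.493 to 0.558) in lean adipose, against 2.58 (2.48 to 2.68) in LN. Zap70 had 0.245 (0.220 to 0.271), 0.163 (0.148 to 0.179), 0.257 (0.238 to 0.276) and 0.154 (0.141 to 0.169) reads per read of Lck in these adipose libraries, against 0.0867 (0.0795 to 0.0945) in LN. The balance of the adaptors and of the kinases thus stood apart from LN in all 4 adipose libraries. Per read of Cd3e there were 0.215 (0.185 to 0.25), 0.622 (0.580 to 0.668), 0.787 (0.722 to 0.858) and 0.128 (0.108 to 0.152) reads of Cd247, against 0.479 (0.450 to 0.509) in LN, with no common side of fat against lymph node. The head-to-head pair did not keep a fixed ratio, with 2.15 (2.04 to 2.27), 1.64 (1.59 to 1.69), 1.37 (1.33 to 1.42) and 1.12 (1.08 to 1.16) reads of Cd3g per read of Cd3d, against 1.82 (1.78 to 1.85) in LN.

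The genes most like the 4 chains in pattern were found by the root mean square distance between log2(CPM + 1) profiles, each centred on its mean over the 5 libraries, among 6449 genes with a mean of at least 20 CPM. Slc25a5 (a mitochondrial ADP/ATP carrier gene) was closest at 0.07, with 289.7, 436, 442 and 243 CPM in the adipose libraries and 859 in LN. Cdk5, Acat1, Psmb7 and Vps41 followed, at 0.10, 0.14, 0.14 and 0.15. Among the members Cd3g was nearest to the chains' mean profile, at 0.20, and Lat followed at 0.31, nearer than Cd3d (0.36) and Cd3e (0.37), which are themselves part of that mean. Lck, Lcp2, Cd247, Cd4 and Zap70 were at 0.50, 0.57, 0.66, 0.76 and 0.86. With 5 libraries many genes share such a profile, and 121 lay nearer to it than Lat.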

How the data were processed

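Per the labels' protocols, RNA of sorted Tregs was harvested with Trizol and 3 ug went into Illumina TruSeq libraries. Bowtie2 2.0.6, TopHat2 2.0.9 and mm8 stand in the submitters' processing notes. How reads were assigned to genes, with which annotation, strandedness and scaling, was not given in the sources used here. The deposited signal is the authors' scaled read count per Ensembl ID, in 3 tables that each hold 2 libraries. Every nonzero value is a whole multiple of a fixed step of its column, within 0.01 read, and values under 1 are listed as 0, so no count model was fitted. Dividing by that step gave 4595046 to 9694474 reads per library. From these came exact 95% Clopper-Pearson intervals, for folds given the summed reads of the libraries compared. Reads carry no molecular identifiers, so each is not a separate molecule.

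Symbols came from GENCODE M21, keeping the ID with most reads. A gene counted as measured at 1 or more in at least 1 library of a comparison, and calls at 2-fold used a pseudocount of 1. Lengths were the union of GENCODE M21 basic exons, which may differ from the authors' annotation. The members and the 16 other lists were chosen with earlier results of these data known. Named were all members, up to 3 genes of each pathway list with the largest ratio either way among those at 5 or more, the 5 genes most like the CD3 chains, and Med23, Xist, Ddx3y, Gapdh and Foxp3. Pou2f1, 4930469K13Rik, Syk, Cd79a, Cd79b, Nkg7, Cd8a, Cd8b1 and, in 10-month adipose against LN, Cd28 were chosen after their values were seen. The same holds for the list genes whose calls rescaling changed and the markers listed at 0 in LN. It also holds for the counts of the lists under other scalings. Some genes that this rule names are not reported here. Alternatives were other scalings, pseudocounts, filters and thresholds. Calculations used Python 3.11.15 (numpy 2.4.6, scipy 1.17.1, pandas 2.3.3; figures with matplotlib 3.10.9) and were tested on simulated data.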

Additional observations from a re-analysis of the deposited data

How the results depend on the processing

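No paired analysis was possible because each group has 1 library. The sign of the median ratio of the 9 genes was kept in every alternative run. A pseudocount of 0.5 or 5, a filter of 5, no filter and summing IDs of a symbol moved no count of the 9 genes and no median beyond its interval. Rescaled to 1000000, the median log2 ratio was -1.16 for lean adipose over LN, -0.56 for obese adipose over LN with 1 gene higher, and -0.39 for the library labelled Med23 KO over 10-month Foxp3Cre with 1 gene lower. Centred on all measured genes, medians were -1.44 and -1.17 for lean and obese adipose over LN, -0.54 for the library labelled Med23 KO, 0.30 for obese over lean, 0.43 for 10-month over lean with 2 genes higher, and -0.67 for 10-month over LN. Centring changed all genes of obese over LN to 4612 higher and 4615 lower, against 6144 and 3484. Upper quartile scaling gave 0.43 for 10-month over lean with 2 genes higher, and -0.48 for 10-month over LN, where Lck was no longer past 2-fold. A 1.5-fold threshold gave 2 genes higher in obese over LN and 5 lower for the library labelled Med23 KO. It gave 3 higher in obese over lean and 3 higher in 10-month over lean. It also put Lck in lean over LN, and Lck and Lcp2 in obese over LN, among the lower ones. Other count changes of the 9 genes of at most 1.5-fold are mostly left out here. The 10-month library in place of the lean one gave -0.58 over LN. Without Cd4 the chains took 62.6%, 67.4%, 64.8% and 60.3% in the library labelled Med23 KO, 10-month Foxp3Cre, obese and lean adipose, against 69.7% in LN.

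Counts over all genes were less stable. With a pseudocount of 5 there were 3370 genes higher in obese over LN (6144 with 1), 2515 higher and 3149 lower for the library labelled Med23 KO (3877 and 4730), 2466 higher and 1670 lower in obese over lean (5033 and 2760), 2277 higher in 10-month over lean (3958) and 2793 higher in 10-month over LN (4529). With a filter of 5 there were 3750 higher in obese over LN, 2877 in obese over lean and 2577 in 10-month over lean. These follow from the construction of the settings, which remove or shrink genes with few reads. Among the 9 genes depth limits Cd247 in lean adipose most, with 156 reads.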
